A study of Danio rerio with 16 samples.

Results

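Epithelial genes of the gut and pronephros, 10 of the 36109 symbols in the deposited count table, were followed in whole zebrafish embryos that lack hnf4a and hnf4b. They are vil1, anpepa, anpepb, mogat2, tm4sf4, cldn15la, cdh17, cubn, lrp2a and cdx1b, chosen by symbol as brush-border, junction and endocytic genes of the gut and the kidney tubule, together with a gut transcription factor. All 10 symbols were found, and 9 of them passed the filter on low counts, anpepa being the exception. The study sequenced RNA of embryos at 34 and 48 hours post-fertilisation (hpf) in 4 groups of 4 libraries. The groups were untreated siblings and embryos with a CRISPR/Cas9-mediated knockout of hnf4a and hnf4b at each stage. The labels do not give the alleles, the genotype of the siblings beyond that word, the number of embryos pooled or whether replicates came from separate clutches, so p-values measure only the spread between these samples. The labels name each stage as a batch, so stage and batch cannot be told apart.

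Absorptive epithelia of the gut and of the kidney tubule share a design. Their apical side carries microvilli with peptidases on the surface, tight junctions seal neighbouring cells, and endocytic receptors of the tubule recover filtered protein. At these stages the zebrafish gut is still forming and the embryo lives on its yolk, while the pronephros, the embryonic kidney, is already built. Hnf4 proteins are nuclear receptors of liver, gut, kidney and the yolk syncytial layer, and in mammals they bind near many brush-border genes.

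Total counts per library ran from 34588058 to 43194625. Levels are given as CPM, counts scaled to the size of each library,, and since reads per gene also grow with transcript length they compare samples of a gene and not genes with each other. The targeted genes themselves did not separate the genotypes: hnf4a changed by -0.08 ± 0.27 (log2 fold change ± SE, adjusted p = 0.897) at 34 hpf and hnf4b by -0.91 ± 0.48 (adjusted p = 0.269), so these levels do not check the labels. Low counts in the table were mostly even numbers, 69.2% of the values from 1 to 49. The counts of vil1, cdx1b and cldn15la were even in 16 of 16 libraries. How pairs of reads were counted is not given in the sources used here.

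Members that changed with the knockout were lower, 4 at 34 hpf and 2 at 48 hpf. At 34 hpf 4 of the 9 tested members were called lower, cldn15la, cdh17, cdx1b and cubn, and 0 higher. In edgeR's quasi-likelihood test over 24084 genes, 5.21% were called lower and 4.09% higher at an adjusted p below 0.05. That is 1255 and 985 genes, and with upper quartile scaling it was 1078 and 1375. At 48 hpf 2 members were called lower, vil1 and cldn15la, and 0 higher, against 5.28% of all genes lower and 4.76% higher. With the replicate number as a block, 4 members were called lower at 34 hpf and 1 at 48 hpf, vil1. At an unadjusted p below 0.05, 4 members were lower and 1 higher at either stage (lrp2a at 34 hpf, tm4sf4 at 48 hpf). Adjusted p lay close to the threshold for 2 of these 6 calls, cubn at 34 hpf (0.0484) and cldn15la at 48 hpf (0.0478). The median log2 fold change of the 9 members was -0.61 at 34 hpf and -0.24 at 48 hpf, beside medians of 0.01 and 0.00 over all genes tested. The members were chosen with earlier results of these data known, so these contrasts with all genes are not an independent test of the set. Since a whole embryo was sequenced, fewer cells of a type and less RNA per cell cannot be told apart.

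**Figure D1:**
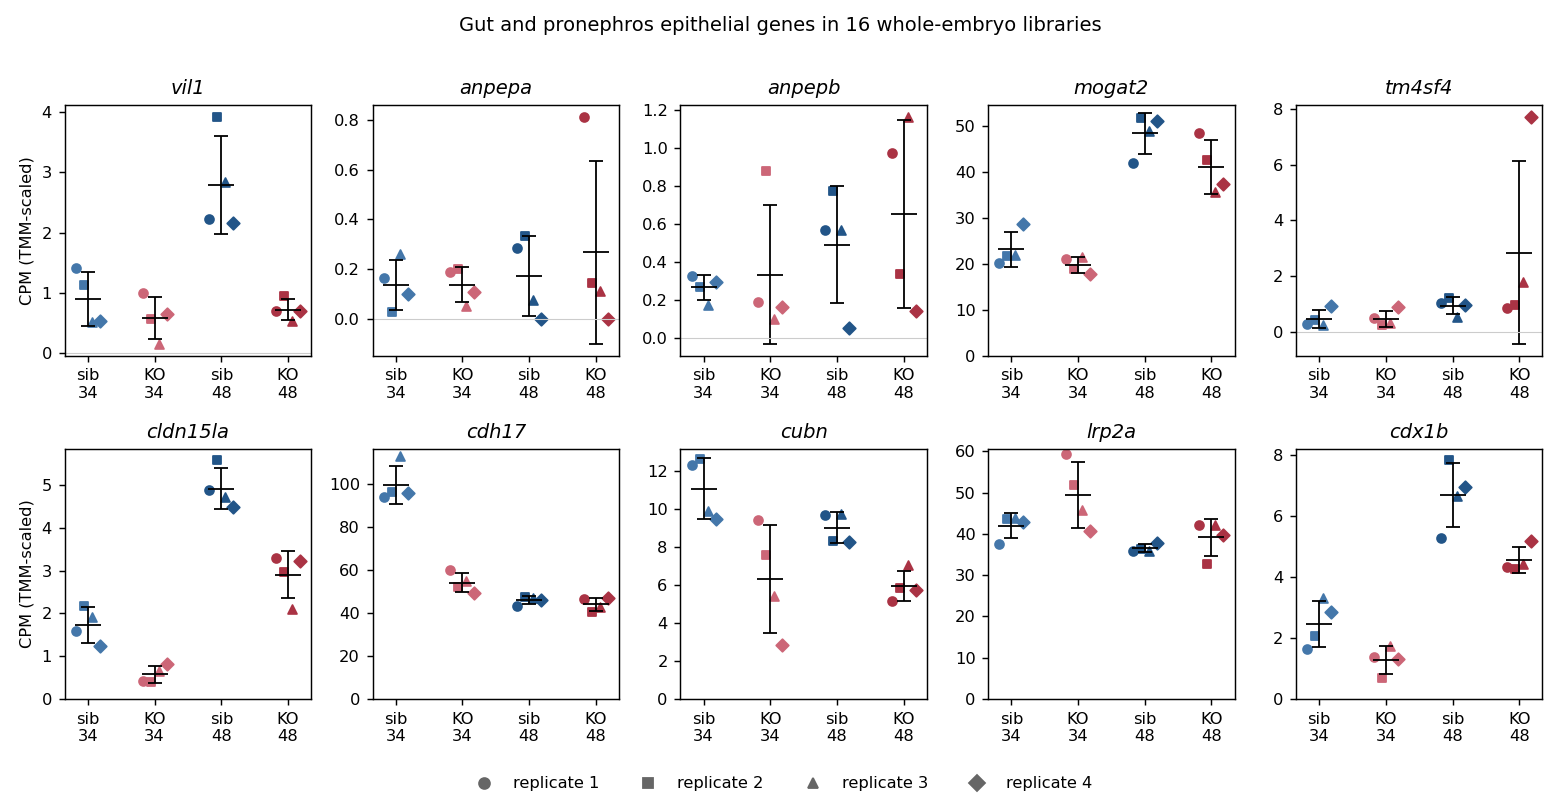
Levels of the 10 genes in each of 16 libraries, in CPM on a linear axis, for siblings (sib) and knockouts (KO) at 34 and 48 hpf. Points are libraries, their shape is the replicate number, and horizontal bars with whiskers are the mean and SD of 4 libraries; the whiskers of anpepa, anpepb and tm4sf4 reach below 0 where the SD is larger than the mean. In cdh17 the sibling libraries of 34 hpf (93.8 to 113 CPM) stand above all others, and in vil1 those of 48 hpf (2.16 to 3.92 CPM) do.

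Of the brush-border genes, vil1 was lower in knockouts at 48 hpf. It encodes villin, which bundles and severs actin in the core of microvilli. Its level was 2.23, 3.92, 2.84 and 2.16 CPM in sibling replicates 1 to 4 at 48 hpf and 0.696, 0.959, 0.539 and 0.702 CPM in the knockouts. All 4 siblings lay above all 4 knockouts, and the log2 fold change was -1.94 ± 0.44 (adjusted p = 0.00903). This call held in each of 8 omissions of a single library, with a log2 fold change from -2.10 to -1.73. At 34 hpf the siblings had 1.42, 1.14, 0.525 and 0.540 CPM and the knockouts 0.996, 0.568, 0.15 and 0.656 CPM. Those ranges overlapped and the log2 fold change of -0.61 ± 0.45 was not called (adjusted p = 0.461). A difference between the effects at the 2 stages was not shown either (-1.33 ± 0.62 as a difference of log2 fold changes, adjusted p = 0.671).

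Both aminopeptidase N genes, which encode peptidases of the brush-border surface, were near the detection limit. The counts of anpepa were between 0 and 12 in 15 of 16 libraries and 35 in knockout replicate 1 of 48 hpf, so it was not tested. For anpepb the levels ran from 0.175 to 0.328 CPM in siblings and from 0.10 to 0.880 CPM in knockouts at 34 hpf, and from 0.0539 to 0.774 and from 0.14 to 1.17 CPM at 48 hpf. Genotype changed it by 0.30 ± 0.79 (adjusted p = 0.875) and 0.41 ± 0.74 (adjusted p = 0.80) on the log2 scale. A difference of the size seen for vil1 was not detectable with such errors. Reads could be shared or lost between the 2 paralogs, since the treatment of reads with several alignments is not given in the sources used here.

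The lipid gene mogat2 encodes an acyltransferase that rebuilds triglyceride from absorbed monoacylglycerol in mammalian enterocytes. Sibling levels were 20.2, 21.7, 21.9 and 28.7 CPM at 34 hpf and knockout levels 21.0, 18.9, 21.4 and 17.7 CPM. At 48 hpf the siblings had 42.0, 51.6, 48.8 and 50.9 CPM and the knockouts 48.5, 42.5, 35.5 and 37.4 CPM. Groups overlapped at both stages, and neither -0.23 ± 0.12 (adjusted p = 0.282) nor -0.24 ± 0.12 (adjusted p = 0.250) was called.

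In tm4sf4, which encodes a membrane protein known from liver, gut and pancreas of mammals, 1 library set the result. The knockouts of 48 hpf had 0.859, 0.959, 1.80 and 7.72 CPM and the siblings 1.04, 1.22, 0.517 and 0.97 CPM. Replicate 4 stood far above the other knockouts, whose levels overlapped those of the siblings. The log2 fold change was 1.60 ± 0.64 (adjusted p = 0.134), and it was 0.37 (adjusted p = 0.759) without that library. With the replicate number as a block it was 1.05 (adjusted p = 0.247). At 34 hpf both group means were 0.469 CPM.

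The junction gene cldn15la encodes a claudin, a membrane protein of tight junctions, and marks the intestinal epithelium of zebrafish larvae. It was the only member called lower at both stages. At 34 hpf the siblings had 1.59, 2.17, 1.92 and 1.23 CPM and the knockouts 0.427, 0.398, 0.652 and 0.820 CPM. The groups did not overlap, and the log2 fold change was -1.58 ± 0.26 (adjusted p = 0.000872). At 48 hpf the levels were 4.87, 5.58, 4.70 and 4.47 CPM against 3.30, 2.97, 2.11 and 3.23 CPM. Again every sibling lay above every knockout, with a log2 fold change of -0.76 ± 0.23 (adjusted p = 0.0478). The 48 hpf call was lost with the replicate block (adjusted p = 0.0719) and in each of 8 omissions of a library (adjusted p from 0.0518 to 0.143, log2 fold change from -0.86 to -0.63). That of 34 hpf held in all 8 omissions.

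The adhesion gene cdh17 encodes a cadherin that in zebrafish marks the pronephric tubule and duct and in mammals the intestine. Its siblings stood at 93.8, 96.0, 113 and 95.9 CPM at 34 hpf and its knockouts at 60.0, 52.0, 55.0 and 49.5 CPM. All siblings were above all knockouts, by a log2 fold change of -0.88 ± 0.08 (adjusted p = 4.90e-06), which ran from -0.94 to -0.81 when single libraries were left out. At 48 hpf the levels were 43.4, 47.5, 47.0 and 46.3 CPM in siblings and 46.4, 40.4, 42.7 and 46.9 CPM in knockouts. These overlapped, and the log2 fold change was -0.06 ± 0.08 (adjusted p = 0.718). The knockout effect thus differed between the stages, by 0.82 ± 0.12 (48 minus 34 hpf, adjusted p = 0.00480), where 0.0872% of all genes were called in that direction and 0.116% in the other. It was the only member of 9 called in this test, and the call held in 16 of 16 omissions (0.75 to 0.86).

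**Figure D2:**
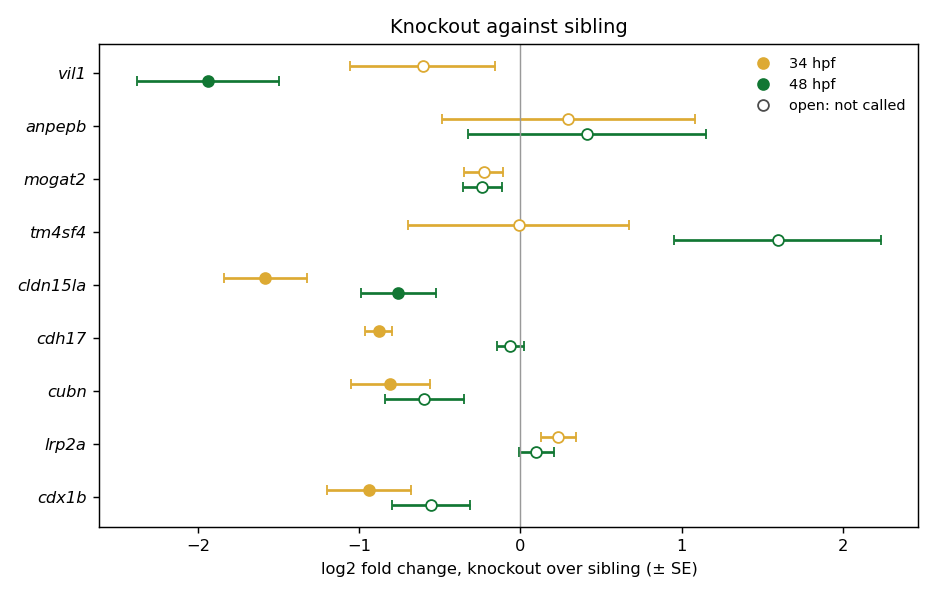
Log2 fold change of knockout over sibling for the 9 tested genes at 34 hpf (yellow) and 48 hpf (green), with whiskers of 1 SE; filled points were called at an adjusted p below 0.05 and open ones were not. The point of cdh17 moves from -0.88 at 34 hpf to -0.06 at 48 hpf, and that of vil1 from -0.61 to -1.94.

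Of the endocytic receptor genes, cubn was lower in knockouts at 34 hpf and lrp2a was called at neither stage. Cubilin, from cubn, binds filtered proteins and reaches the membrane with amnionless, and megalin, from lrp2a, is the large receptor that takes up its cargo with it. At 34 hpf cubn was at 12.3, 12.6, 9.88 and 9.48 CPM in siblings and at 9.41, 7.58, 5.39 and 2.84 CPM in knockouts. On the TMM-adjusted scale the highest knockout lay just under the lowest sibling, and the log2 fold change was -0.81 ± 0.25 (adjusted p = 0.0484). This call was lost in 5 of 8 omissions, namely of any sibling library or of knockout replicate 3 (highest adjusted p = 0.133). Without knockout replicate 4, the lowest, the log2 fold change was -0.57 and still called (adjusted p = 0.0416).

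At 48 hpf cubn was at 9.69, 8.32, 9.72 and 8.27 CPM in siblings and at 5.15, 5.82, 7.07 and 5.76 CPM in knockouts. The groups did not overlap, yet the log2 fold change of -0.60 ± 0.25 was not called (adjusted p = 0.144). In a fit with only the libraries of 48 hpf it was (-0.59, adjusted p = 0.0151). Groups without overlap, lower in knockouts, were found for 4 of the 9 members at 48 hpf (vil1, cldn15la, cubn and cdx1b) and for 3 at 34 hpf (cldn15la, cdh17 and cubn). Over all genes tested the same held for 10.7% at 48 hpf and 7.23% at 34 hpf. In the higher direction it held for 0 members, and for 8.49% and 6.93% of all genes.

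For lrp2a the siblings of 34 hpf had 37.6, 43.7, 43.8 and 43.0 CPM and the knockouts 59.3, 51.7, 45.9 and 40.8 CPM. Knockout replicate 4 fell within the sibling range and the other 3 lay above it. The log2 fold change of 0.23 ± 0.11 was not called (adjusted p = 0.201), but without that library it was 0.32 (adjusted p = 0.0457). At 48 hpf it was 0.10 ± 0.11 (adjusted p = 0.643), with 35.9 to 37.9 CPM in siblings and 32.6 to 42.2 CPM in knockouts.

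Partners of these receptors were read from a list of the endocytic complex, which also holds genes outside it, such as ctns and ap1m2. Of its 14 other genes, 2 were lower and 1 higher at 34 hpf, beside 5.21% and 4.09% of all genes. At 48 hpf 1 was lower and 3 higher, beside 5.28% and 4.76% of all genes. With the replicate block 3 were lower and 2 higher at 34 hpf and 2 higher at 48 hpf. Leaving out a library gave 0 to 3 lower at 34 hpf (0 or 1 without any of the siblings or without knockout replicates 2 or 3) and 0 to 2 higher at 48 hpf (0 or 1 on omitting sibling replicate 1, 2 or 3 or knockout replicate 1, 3 or 4). The gene amn, for amnionless, fell from 1.08 ± 0.132 to 0.356 ± 0.204 CPM at 34 hpf (means with SD, n = 4), which is -1.60 ± 0.41 on the log2 scale (adjusted p = 0.0202). Leaving out sibling replicate 3 or knockout replicates 2 or 3 ended this call (highest adjusted p = 0.0684). The gene lrpap1, whose product chaperones megalin, fell at 48 hpf from 51.6 ± 1.38 to 38.9 ± 3.71 CPM (-0.41 ± 0.09, adjusted p = 0.00825). Its change at 34 hpf, -0.30 ± 0.09, sat at the threshold (adjusted p = 0.0496) and was lost in 11 alternatives. The genes ctns at 34 hpf (0.50 ± 0.12, adjusted p = 0.0130), for a lysosomal cystine exporter, and ap1m2 at 48 hpf (0.72 ± 0.18, adjusted p = 0.0201), for an epithelial sorting adaptor, rose. For ap1m2 the call ended when sibling replicates 2 or 3 or knockout replicate 1 were omitted (highest adjusted p = 0.0928).

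The transcription factor cdx1b, a caudal-type homeobox gene of the zebrafish endoderm and intestine, was lower at 34 hpf. Siblings had 1.64, 2.06, 3.32 and 2.85 CPM and knockouts 1.38, 0.682, 1.76 and 1.31 CPM. The ranges overlapped at 1 point, knockout replicate 3 lying above sibling replicate 1. The log2 fold change was -0.94 ± 0.26 (adjusted p = 0.0290). Leaving out sibling replicates 3 or 4 or knockout replicate 2 ended the call (highest adjusted p = 0.10) as did limma-voom (adjusted p = 0.0633) and a fit of the 34 hpf libraries alone (adjusted p = 0.134). At 48 hpf the levels were 5.29, 7.85, 6.67 and 6.95 CPM against 4.32, 4.27, 4.44 and 5.19 CPM. There the groups did not overlap, but -0.55 ± 0.24 was not called (adjusted p = 0.170), other than in a fit of the 48 hpf libraries alone (adjusted p = 0.0415).

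**Figure D3:**
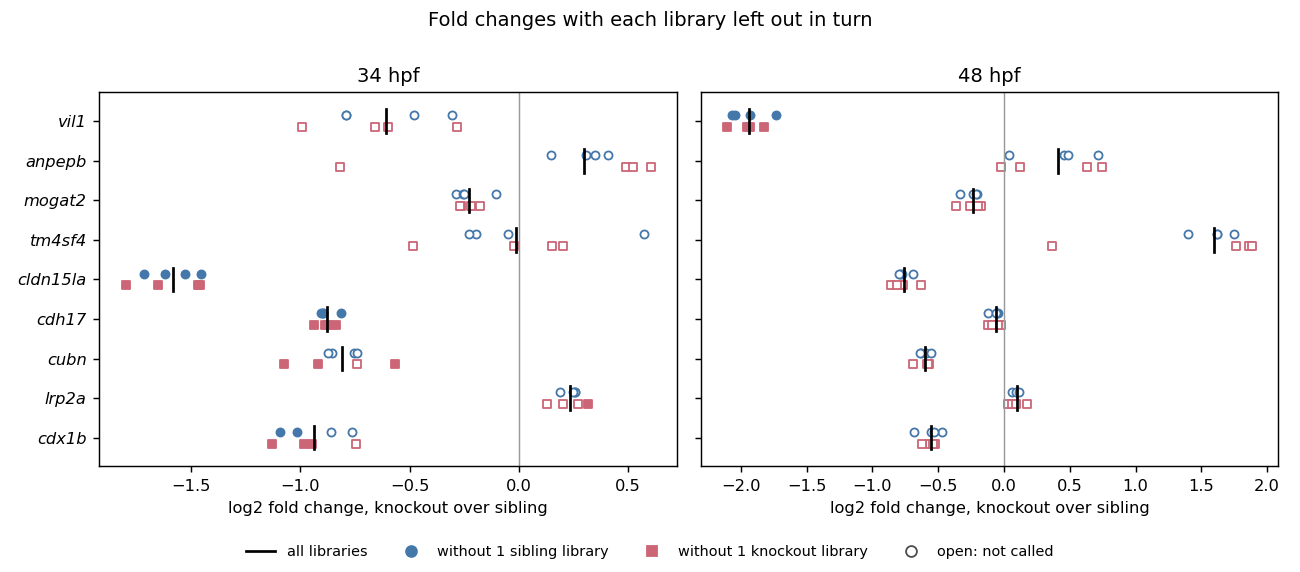
Log2 fold change of knockout over sibling with each of 8 libraries left out in turn, at 34 hpf (left) and 48 hpf (right); circles leave out a sibling library, squares a knockout library, filled points were called at an adjusted p below 0.05, and the vertical bar is the value from all libraries. For tm4sf4 at 48 hpf 1 square sits at 0.37, far from the other points, and all points of cldn15la at 48 hpf are open.

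Between 34 and 48 hpf 5 members changed in siblings. There vil1, cdx1b, cldn15la and mogat2 rose and cdh17 fell, 4 and 1 of 9, where 18.3% of all genes were called higher and 15.7% lower. The log2 fold changes were 1.62 ± 0.44 for vil1 (adjusted p = 0.00795), 1.44 ± 0.25 for cdx1b (adjusted p = 0.000220), 1.51 ± 0.24 for cldn15la (adjusted p = 9.55e-05) and 1.06 ± 0.12 for mogat2 (adjusted p = 3.25e-06). For cdh17 the value was -1.11 ± 0.08 (adjusted p = 3.31e-08), from a mean of 99.6 ± 8.83 to 46.0 ± 1.84 CPM (n = 4). In all 5 the libraries of the 2 stages did not overlap. Groups of siblings that did not overlap were seen in 20.4% of all genes in the higher and 19.9% in the lower direction. The receptors cubn (-0.30 ± 0.24, adjusted p = 0.387) and lrp2a (-0.20 ± 0.11, adjusted p = 0.171) were not called.

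In knockouts cdx1b (1.82 ± 0.26, adjusted p = 4.60e-05), cldn15la (2.33 ± 0.26, adjusted p = 3.85e-06) and mogat2 (1.05 ± 0.12, adjusted p = 6.57e-06) rose over the same interval. The gene tm4sf4 was called higher as well (2.59 ± 0.68, adjusted p = 0.00828), but not without knockout replicate 4 of 48 hpf (1.36, adjusted p = 0.0743) and not in limma-voom (2.12, adjusted p = 0.0537). Lower calls were those of cdh17 (-0.30 ± 0.08, adjusted p = 0.0131) and lrp2a (-0.34 ± 0.11, adjusted p = 0.0275), and both were lost in a fit of the knockouts alone (adjusted p = 0.0654 and 0.114). That of lrp2a was lost without knockout replicates 1 or 2 of 34 hpf or 2 of 48 hpf (highest adjusted p = 0.0955). The counts of 4 higher and 2 lower compare with 15.5% and 12.1% of all genes. Stages did not overlap in knockouts for cdx1b, cldn15la and mogat2 (higher) and cdh17 (lower), as for 14.4% and 10.3% of all genes. For vil1 the value in knockouts was 0.28 ± 0.45 (adjusted p = 0.694), with means of 0.593 ± 0.348 and 0.724 ± 0.174 CPM. The comparisons of stage and of genotype share their libraries, so the values of cdh17 in siblings and in the knockout comparison of 34 hpf both rest on the siblings of 34 hpf.

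**Figure D4:**
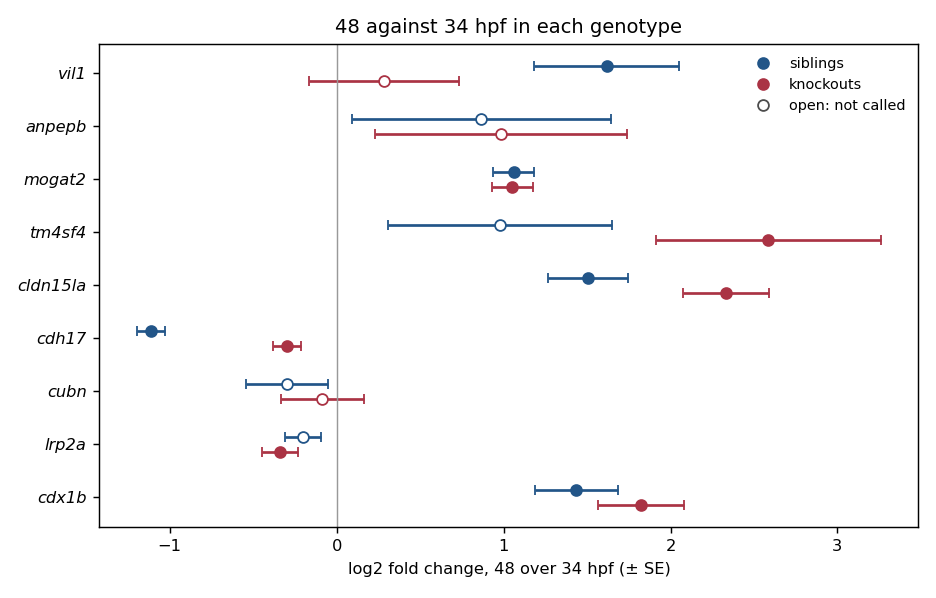
Log2 fold change of 48 over 34 hpf for the 9 tested genes in siblings (blue) and knockouts (red), with whiskers of 1 SE; filled points were called at an adjusted p below 0.05 and open ones were not. The genotypes lie close together for mogat2 (1.06 and 1.05), and apart for cdh17 (-1.11 and -0.30), whose difference was called, and for vil1 (1.62 and 0.28), whose difference was not.

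In the list of microvillus cytoskeleton and adhesion 2 of 18 tested genes besides vil1 were lower at 34 hpf and 4 of 18 at 48 hpf, beside 5.21% and 5.28% of all genes. Leaving out a library gave 1 to 3 at 34 hpf (1 on omitting sibling replicate 1 or 3 or knockout replicate 2 or 3). At 48 hpf it gave 0 to 4 (0 to 2 on omitting replicate 2, 3 or 4 of either genotype). No gene was higher in the fit of all libraries, 1 was at an unadjusted p below 0.05 at each stage, and 1 was called higher in DESeq2 at each stage and by edgeR at 34 hpf without knockout replicate 4. The actin regulator relative eps8l3b fell from 2.86 ± 0.353 to 1.01 ± 0.50 CPM at 34 hpf (-1.49 ± 0.35, adjusted p = 0.0113) and from 3.49 ± 1.37 to 1.39 ± 0.462 CPM at 48 hpf (-1.33 ± 0.34, adjusted p = 0.0186). The actin bundler gene pls1 (-0.88 ± 0.23, adjusted p = 0.0225) and the microvillus linker gene anks4b (-0.94 ± 0.28, adjusted p = 0.0420) fell at 48 hpf. At that stage calls were lost in 3 omissions for eps8l3b (sibling replicates 3 or 4, knockout replicate 3), in 4 for pls1 (sibling replicates 2 or 3, knockout replicates 3 or 4) and in 7 for anks4b (all but knockout replicate 1). Of 12 tested surface peptidases and hydrolases besides the aminopeptidases, 2 were lower at 34 hpf (1 in 7 of 8 omissions, all but that of knockout replicate 2) and 1 at 48 hpf (2 without knockout replicate 4). None was called higher in edgeR, DESeq2 or limma-voom, and 1 was higher at an unadjusted p below 0.05 at each stage. Their summed level at 34 hpf was 38.1 to 44.6 CPM in siblings and 24.8 to 37.1 CPM in knockouts, without overlap. Such a sum weighs abundant genes most, and 10 of the 12 genes were not called at 34 hpf. Among single genes of the whole table, 7.23% were without overlap in the lower direction at that stage. At 48 hpf the sum was 32.7 to 38.4 CPM in siblings and 32.0 to 37.4 CPM in knockouts, almost the same range. The peptidase gene dpp4 fell from 11.5 ± 1.24 to 5.21 ± 1.34 CPM (-1.15 ± 0.20, adjusted p = 0.00156) at 34 hpf. The other call of 34 hpf was enpep, from 4.85 ± 0.420 to 2.23 ± 1.53 CPM (-1.13 ± 0.34, adjusted p = 0.0432). It was lost in 8 alternatives. At 48 hpf xpnpep2 fell from a low level, 0.732 ± 0.171 to 0.258 ± 0.103 CPM (-1.50 ± 0.36, adjusted p = 0.0126). Settings other than omissions gave 0 to 2 peptidases and hydrolases lower at 48 hpf. The medians of the 2 lists were -0.15 and -0.31 at 34 hpf and -0.16 and -0.05 at 48 hpf.

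Junction genes of epithelia in general held more higher than lower calls. Of 21 tested besides cldn15la and cdh17, 7 were higher and 1 lower at 34 hpf and 9 higher and 0 lower at 48 hpf, with medians of 0.37 and 0.36, beside 4.09% and 4.76% of all genes called higher. With the replicate block 10 were higher and 0 lower at 34 hpf, and 5 were higher and 0 lower at 48 hpf. Leaving out a library gave 3 to 7 higher at 34 hpf (3 or 4 without sibling replicates 2, 3 or 4). At 48 hpf it gave 2 to 11 (2 to 4 without any of the siblings or without knockout replicates 1 or 4). The occludin genes oclna (0.61 ± 0.09, adjusted p = 0.000504) and oclnb (0.49 ± 0.09, adjusted p = 0.00176) rose at 34 hpf, and at 48 hpf they were at 0.51 ± 0.09 (adjusted p = 0.00227) and 0.39 ± 0.09 (adjusted p = 0.00789). Tight junction genes are expressed in skin as well. Among 17 epidermal and ionocyte genes 3 rose at 34 hpf and 6 at 48 hpf (3 on omitting sibling replicate 1, 2 or 3 or knockout replicate 1 or 4), and 0 fell, and their summed level was 22884 to 24053 CPM in siblings and 23648 to 30395 CPM in knockouts at 34 hpf. At 48 hpf it was 18437 to 19937 and 23131 to 24203 CPM. Their part in the junction counts was not tested.

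**Figure D5:**
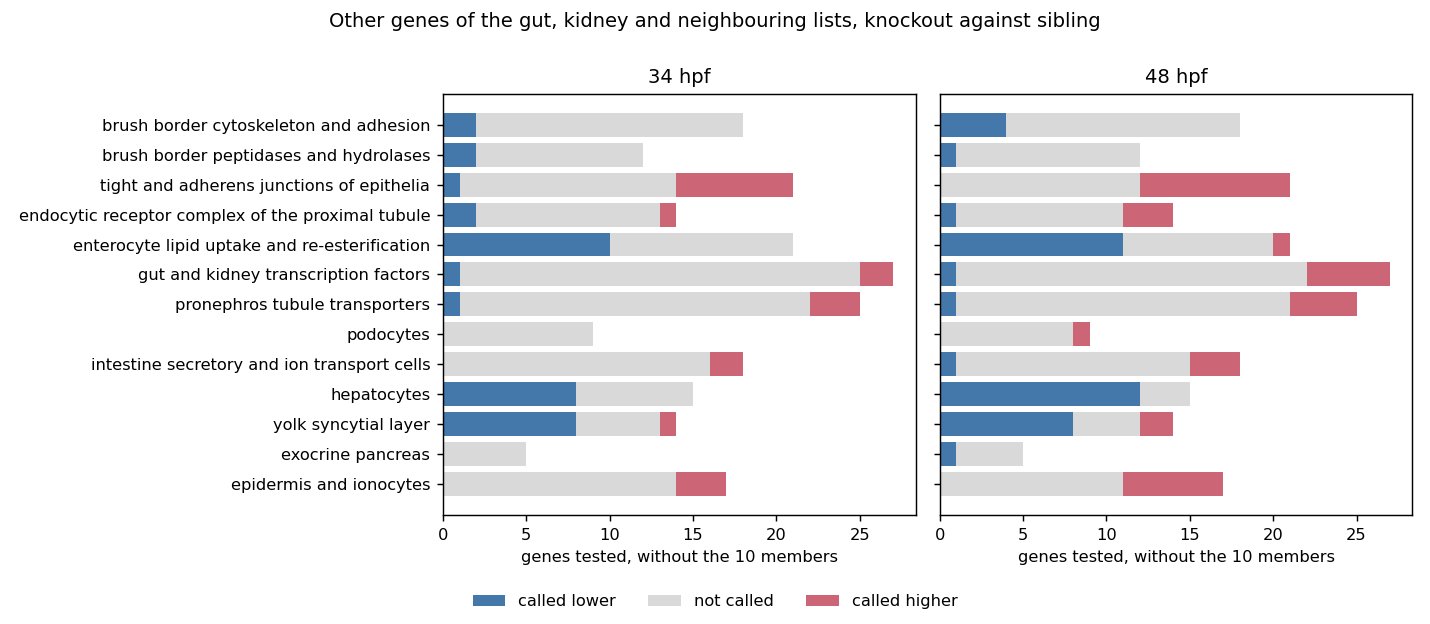
Number of tested genes called lower (blue), not called (grey) and called higher (red) in knockouts against siblings, at 34 hpf (left) and 48 hpf (right), for 13 lists from which the 10 genes were left out. Lipid uptake, hepatocyte and yolk syncytial layer genes hold the longest blue bars (10, 8 and 8 genes at 34 hpf), and junction genes the longest red bar (7 at 34 hpf and 9 at 48 hpf).

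Among enterocyte lipid genes besides mogat2, 10 of 21 were lower and 0 higher at 34 hpf, with a median of -0.55. At 48 hpf 11 were lower and 1 higher, with a median of -0.54. Of all genes tested, 5.21% and 5.28% were called lower at these stages, and 4.09% and 4.76% higher. The acyl-CoA synthetase gene acsl5 fell from 17.1 ± 1.60 to 2.93 ± 1.66 CPM at 34 hpf (-2.54 ± 0.31, adjusted p = 5.78e-05). Several of the lipid genes also work in liver and yolk syncytial layer, and the lists of those tissues moved too. The lists are not separate. The gene mttp, called lower at both stages, stands in the lipid list and in the yolk syncytial layer list. Of 15 hepatocyte genes tested 8 fell at 34 hpf and 12 at 48 hpf, and 0 rose. The summed hepatocyte level was 3499 to 4539 CPM in siblings and 1136 to 2525 CPM in knockouts at 34 hpf, and 2441 to 3727 and 425 to 970.1 CPM at 48 hpf. In the list 3 of 18 genes were too low to test, and 1 had 0 counts in all libraries. Of 14 yolk syncytial layer genes 8 fell and 1 rose at 34 hpf, with sums of 13827 to 17959 CPM in siblings and 1513 to 5749 CPM in knockouts, and 8 fell and 2 rose at 48 hpf. The part of these tissues in the lower members was not tested.

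Of 25 tested genes listed for pronephric tubule transport 1 was lower and 3 higher at 34 hpf and 1 lower and 4 higher at 48 hpf. The medians were 0.15 and 0.13, and 4.09% and 4.76% of all genes were called higher. Not all are transporters, as the list holds the transcription factor gene rfx2. It was called higher at 34 hpf (0.42 ± 0.11, adjusted p = 0.0213) and at 48 hpf (0.43 ± 0.11, adjusted p = 0.0201), and some omissions ended each call. The summed level of the list was 632 to 662 CPM in siblings and 674 to 707 CPM in knockouts at 34 hpf, and 555 to 601 and 651 to 677 CPM at 48 hpf, without overlap at either stage. Among single genes of the whole table, 6.93% and 8.49% were without overlap in the higher direction. A sum weighs abundant genes most, and 21 of the 25 listed genes at 34 hpf and 20 at 48 hpf were not called. Leaving out a library gave 1 to 2 higher at 34 hpf (1 without any of the siblings or without knockout replicate 3) and 1 to 4 at 48 hpf (1 or 2 on omitting sibling replicate 1, 2 or 4 or knockout replicate 3 or 4). With the replicate block 2 were lower at 48 hpf. The sulfate transporter gene slc26a1, which also stands in the yolk syncytial layer list, fell at 34 hpf (-1.03 ± 0.20, adjusted p = 0.00296) and at 48 hpf (-1.14 ± 0.20, adjusted p = 0.00146). The anion exchanger gene slc4a2a rose at 48 hpf (0.73 ± 0.12, adjusted p = 0.000613). None of 9 podocyte genes was called at 34 hpf by edgeR, DESeq2 or limma-voom, and 1 was lower at an unadjusted p below 0.05. At 48 hpf the slit diaphragm gene nphs1 was called higher (0.74 ± 0.22, adjusted p = 0.0429), and with the replicate block it was not (adjusted p = 0.0800). It also lost its call in 7 of 8 omissions, all but that of knockout replicate 4 (highest adjusted p = 0.14).

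Transcription factors of gut and kidney besides cdx1b held 2 higher and 1 lower of 27 at 34 hpf, and 5 higher and 1 lower at 48 hpf. Of all genes tested, 4.09% were called higher and 5.21% lower at 34 hpf, and 4.76% and 5.28% at 48 hpf. Omissions gave 0 to 3 factors higher at 34 hpf (0 or 1 for sibling replicates 1, 2 and 3 and knockout replicate 3). At 48 hpf they gave 2 to 5 higher (2 or 3 for sibling replicates 2 and 4 and knockout replicate 3). The gene hnf1ba, for a factor of the pronephros, rose at 48 hpf from 13.9 ± 1.11 to 20.1 ± 3.18 CPM (0.52 ± 0.12, adjusted p = 0.0118), a call lost without sibling replicate 1 (adjusted p = 0.0536). The caudal-type gene cdx4, of the posterior body, rose at 48 hpf from 0.544 ± 0.196 to 1.67 ± 0.217 CPM (1.62 ± 0.27, adjusted p = 0.000900). Among 18 genes of secretory and ion transport cells of the gut, 2 were higher and 0 lower at 34 hpf. At 48 hpf 3 were higher and 1 lower, beside the same shares of all genes as above. Of 13 exocrine pancreas genes 8 were too low to test. Of the 5 tested, 0 were called at 34 hpf by edgeR, DESeq2 or limma-voom (0 at an unadjusted p below 0.05). At 48 hpf 1 was lower, cpa1 (-3.05 ± 0.77, adjusted p = 0.0181). Its call was lost in limma-voom and without sibling replicate 4 or knockout replicate 3 (highest adjusted p = 0.0605). Levels of cpa1 were near the detection limit, 0.312 ± 0.197 CPM in siblings and 0.0353 ± 0.0235 CPM in knockouts.

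The genes whose level over the 16 libraries was most like that of a member were sought among 14519 others by Pearson correlation of log2 CPM, as a description. The libraries share the stage and genotype groups, so high values are common. For vil1 they were ptpn11b (0.94), rnf41 (0.90) and lrpap1 (0.89), the last being the megalin chaperone gene named above. For cldn15la they were usp33, prelid3a and gys1 (0.97 to 0.95), and for cdx1b scara3, nr2e3 and rab38b (0.96 to 0.95). For mogat2 they were prrt1, gpr37l1b and adcyap1r1a (0.99 to 0.98), and for cdh17 mthfd1b, larsb and dis3 (0.94 to 0.93). For cubn they were rbm6, cep350 and cpz (0.95) and for lrp2a sema6dl, rest and gli1 (0.93 to 0.90). The low genes anpepb and tm4sf4 had no gene above 0.83, the nearest being ubp1 (0.83) and tspan4b (0.83). No member was among these genes by construction.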

How the data were processed

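The authors deposited 1 table of unnormalized counts by symbol, with a column for each of 16 libraries of TRIzol-extracted embryo RNA (VAHTS Universal V8 kit, per the labels' protocols). The submitters' processing notes name the build GRCz11 and, for alignment and counting, STAR (2.7.10b) and featureCounts (2.0.6), besides FastQC (0.12.1) and Trim Galore (0.6.10). Annotation, strand setting and the treatment of multiply aligned reads: not given in the sources used here.

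Counts were filtered with filterByExpr, leaving 24084 of 36109 symbols, scaled by TMM and tested by quasi-likelihood (edgeR 4.0.16, R 4.3.3) with all 4 groups in the fit. Adjusted p are Benjamini-Hochberg values over all genes tested, and a gene was called below 0.05. SE is the log2 fold change over the root of the F statistic. Correlations used log2 CPM with a prior count of 2. Alternatives were DESeq2 1.42.0, limma-voom (limma 3.58.1), other scalings and filters, a robust prior, the compared libraries only, the replicate block, halved counts (added after seeing the data) and each library left out.

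The members and lists were chosen with earlier results of these data known. All 10 members are named. From each list at most the 3 genes with the smallest p per comparison were eligible, and only if 1 was called.

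To check the pairing, each library's deviation from its group mean was correlated with that of the library of the same number and the other genotype. The 8 values were 0.155 to 0.430, all above the chosen limit of 0.1, so the replicate number was fitted as a block in an alternative. For the genotype comparisons and their difference the block was the number within each stage. For the stage comparisons a number was shared between the stages, a link that this check does not cover. The main tests leave this pairing out. With the block, 1 member and not 2 was called lower at 48 hpf. The pairing comes from these values and the repeat number, whose meaning is not labelled, and in 4 of 8 cases the own number correlated best.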

Additional observations from a re-analysis of the deposited data

Results flagged for a closer look

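The knockout effect on cdh17 differed between the stages by 0.82 on the log2 scale in the test of the difference (-0.88 at 34 hpf, -0.06 at 48 hpf).

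Of 40 groups of 4 libraries, 4 held a library whose gap to the next was above Dixon's critical value. Chance flags about 1 in 20 groups, here 2. The libraries were tm4sf4 in knockout replicate 4 of 48 hpf (7.72 CPM, others 0.859 to 1.80) and anpepb in knockout replicate 2 of 34 hpf (0.880 CPM, others 0.10 to 0.190). In siblings of 34 hpf they were cdh17 in replicate 3 (113 CPM, others 93.8 to 96.0) and lrp2a in replicate 1 (37.6 CPM, others 43.0 to 43.8).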

How the results depend on the processing

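Members called lower at 34 hpf numbered 4, but 2 with only the compared libraries and 2 to 4 when a library was left out, and 0 to 1 were higher. At 48 hpf they numbered 2, but 1 with upper quartile scaling, with no filter or with the replicate block, 4 with only the compared libraries, and 1 in every omission of a library. Between stages in knockouts 2 were lower, but 0 with only the compared libraries and 1 to 2 in omissions. Apart from that of cldn15la at 48 hpf, the replicate block changed no member's call. Upper quartile scaling (adjusted p = 0.0612), no filter (0.0528) and only the compared libraries (0.155) also cost cubn its call at 34 hpf. Signs turned only for changes that were not called. At 34 hpf these were anpepb in limma-voom (-0.21), with the block (-0.0748) and in omissions (-0.82 to 0.60), and tm4sf4 with upper quartile scaling (0.0271), DESeq2 (0.0013), the block (0.0321) and in omissions (-0.49 to 0.57). At 48 hpf it was anpepb in omissions (-0.0224 to 0.75). For the difference between stages they were anpepb (-0.32 to 1.20), mogat2 (-0.13 to 0.0536) and cubn (-0.0300 to 0.45) in omissions. Between stages in knockouts they were vil1 (-0.0378 to 0.67) and cubn (-0.33 to 0.18) in omissions and cubn in limma-voom (0.0257). The causes were not tested. Halving the counts changed 0 calls or directions among the 9 members. Over all genes, 985 were higher and 1255 lower at 34 hpf, 491 and 739 with only the compared libraries, and 1375 and 1078 with upper quartile scaling. Omissions gave 522 to 1226 and 864 to 1982, both highest without knockout replicate 4. For the difference 21 and 28 were called, 80 and 97 in DESeq2, 18 and 18 in limma-voom, and 13 to 62 and 10 to 51 in omissions. The 62 and 51 also came without knockout replicate 4 of 34 hpf. At 48 hpf omissions gave 680 to 1093 higher, against 1146, and 826 to 1258 lower, against 1271. Between stages in knockouts 2921 were lower, 1705 with only the compared libraries. Under a filter of a CPM of at least 1 in 4 libraries, anpepb had no value.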

Other observations

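Replicate 4 of 48 hpf had the lowest aminopeptidase counts in both genotypes. The counts of anpepa were 11, 12, 3 and 0 in siblings and 35, 6, 5 and 0 in knockouts, and those of anpepb 22, 28, 22 and 2 and 42, 14, 52 and 6. The labels do not say what a replicate number marks.

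Deviations of single libraries from their group means were correlated over 16 libraries that share 4 groups. They ran together for cubn and lrp2a (Pearson's r = 0.62) and for cdh17 and lrp2a (0.65), and against each other for cldn15la and cubn (-0.63). These were picked as the most extreme values among all pairs of the 9 tested members and carry no test. The next was 0.55, for cdx1b and cdh17. In the knockouts of 34 hpf both receptors were highest in replicate 1 (9.41 CPM for cubn, 59.3 CPM for lrp2a) and lowest in replicate 4 (2.84 and 40.8 CPM). The summed yolk syncytial layer genes were lowest in replicate 1 (1513 CPM) and highest in replicate 4 (5749 CPM) of those knockouts. These values are given as a description.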
